A study of Mus musculus with 8 samples.

Results

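The somatostatin system was described on 8 arrays of cultured hippocampal neurons through the genes of 2 peptide precursors, somatostatin (Sst) and cortistatin (Cort), and of 4 of their receptors, Sstr1 to Sstr4. These 6 genes were found by matching the accession of each probe that is not a control to RefSeq transcripts. They were read by 7 of 39429 such probes, among 20144 genes named on the array. Each gene has 1 probe except Sstr1, which has 2. Dissociated neurons from mouse hippocampus, grown for 10 days, were infected with a lentivirus carrying either Flag-tagged Nr4a1, an orphan nuclear receptor induced by neuronal activity, or GFP, and RNA was taken 6 days later (n = 4 arrays per group, joined by the labels into 4 pairs). Both groups therefore carry a lentivirus. The sources used here do not give the promoter of either transgene, nor the strain and age of the mice. Every array held the culture's RNA in the Cy5 dye and a commercial mouse reference RNA in Cy3. A level is therefore log2 of Cy5 over Cy3, and a difference is the Nr4a1-labelled minus the GFP-labelled level on that log2 scale. A level depends on the reference as well as on the culture, so levels of different genes were not set against each other. Where 4 values are given for a group, they are those of replicates 1 to 4 in that order.

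Somatostatin is a neuropeptide made by a large class of inhibitory interneurons, which in the hippocampus contact the dendrites of pyramidal cells. Cortistatin is a related peptide of cortical and hippocampal interneurons that binds the same receptors. Those receptors couple to inhibitory G proteins, which lower cyclic AMP, open inwardly rectifying potassium channels and reduce calcium entry. Somatostatin transcription is a textbook case of control by cyclic AMP, through a cyclic AMP response element (CRE) bound by CREB.

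Sst and Cort were lower in the Nr4a1-labelled arrays, and so was Sstr1. Sst fell by 0.23 ± 0.06 (log2 difference, limma SE, n = 4 pairs; adjusted p = 0.0250), Cort by 0.46 ± 0.09 (adjusted p = 0.00592) and Sstr1 by 0.97 ± 0.12 (adjusted p = 0.000282). The size for Sstr1 rests on a reference signal too dim to be called above background on the 8 arrays, and it was -1.49 with no offset in the background correction. Sstr2, Sstr3 and Sstr4 did not pass the test. Of the 6 genes, 3 were therefore lower and 0 higher at an adjusted p under 0.05 in limma. That count was 0 when spots with a non-uniform local background were kept, and 0 with slide as a random block together with the pair. The call of Sst was also lost under several other ways of processing the arrays. Over all 21116 genes or unnamed transcripts tested, 11.5% were lower and 12.9% higher, 24.4% in either direction, with a median difference of -0.0035. Centring each array on its median in place of loess moved these counts from 2433 lower and 2714 higher to 1262 lower and 3464 higher. In RNA of a whole culture, fewer cells of a type and less RNA per cell cannot be told apart.

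The letters before the transcription start are shown for Sst and Cort, the precursor genes that fell, and for Sstr2, which was not called but holds the same full element as Sst. They are the 200 bases upstream of the start in RefSeq's promoter table (GRCm38.p6), which matched 5 of the 6 genes, and run 5′ to 3′ on the gene's strand. Capitals mark the palindromic CRE, TGACGTCA, or its core TGACG, which is part of it, on either strand.
Sst: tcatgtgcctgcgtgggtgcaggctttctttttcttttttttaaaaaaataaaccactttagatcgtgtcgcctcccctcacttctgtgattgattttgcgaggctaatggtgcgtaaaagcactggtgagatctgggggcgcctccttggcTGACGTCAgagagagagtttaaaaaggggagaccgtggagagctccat
Cort: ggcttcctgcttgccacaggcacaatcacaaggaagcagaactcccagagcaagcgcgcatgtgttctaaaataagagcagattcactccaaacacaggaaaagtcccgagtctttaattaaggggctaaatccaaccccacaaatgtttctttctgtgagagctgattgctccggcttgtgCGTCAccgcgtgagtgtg
Sstr2: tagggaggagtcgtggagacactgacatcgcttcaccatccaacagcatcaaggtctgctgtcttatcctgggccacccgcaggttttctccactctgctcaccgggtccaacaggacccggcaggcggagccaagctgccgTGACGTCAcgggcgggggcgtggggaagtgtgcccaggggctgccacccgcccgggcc
The Sst stretch is chr16:23890845-23891044, minus strand; the Cort stretch is chr4:149126764-149126963, minus strand; the Sstr2 stretch is chr11:113619127-113619326, plus strand. The full element lay 48 to 41 bases before the start in Sst and 58 to 51 bases before it in Sstr2. It is found in 1.47% of the 32851 promoter windows of this length in the table. Cort held the core alone on the opposite strand, 18 to 14 bases before the start, and Sstr3 held it on its own strand, 9 to 5 bases before the start in 1 of its 2 windows and not in the other. The core occurs in 15.7% of all windows. The letters AAAGGTCA, the site known for single NR4A receptors (NBRE), were in 1.08% of all windows on either strand and in 0 of these 5 genes' windows. The windows of Sst and Sstr3 lie inside the RefSeq loci of these genes, which reach further upstream (chr16:23889573-23891342 and chr15:78537014-78549365). Any start further upstream was not searched. A match is a description of the letters, and the absence of one from so short a window says nothing about binding elsewhere.

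The arrays were of like brightness. The median spot had a signal of 137 to 194 in Cy5 and of 141.5 to 154 in Cy3, against backgrounds of 29 to 32, and 0 spots were saturated. The precision is limited by the number of arrays. Spots with a non-uniform local background were left out, 37 on Nr4a1-labelled replicate 2, 3, 10, 1 and 5 on the GFP-labelled arrays and 0 on the other 3. Keeping all of them in the background correction gave -0.47 for Sst, -0.50 for Cort and -1.58 for Sstr1, and none of these passed (limma adjusted p = 0.295, 0.141 and 0.148). The 4 GFP-labelled arrays share slide 1, Nr4a1-labelled replicates 1 to 3 share slide 2 and Nr4a1-labelled replicate 4 was on slide 3, so each slide holds 1 group, and replicate 4 is the whole of the labels' batch 2. When slide entered as a random block together with the pair, the calls of Sst, Cort and Sstr1 were all lost (differences -0.19, -0.37 and -0.90; limma adjusted p = 1.0 for each). When it entered in place of the pair they stood (-0.24, -0.47 and -0.97; adjusted p = 0.0289, 0.0125 and 0.000155). The estimated correlation within slides was 0.863 in the former and -0.023 in the latter. Since no slide holds both groups, a slide effect and the group difference cannot be told apart by either fit. The probe for Nr4a1 itself differed by 0.30 ± 0.15 (limma adjusted p = 0.193) and did not separate the groups, which is why the arrays are named by their labels. The labels do not state that replicates came from separate cultures. If they did not, the p-values reflect a technical spread among these samples.

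Somatostatin was measured by 1 probe (A_51_P262489) printed at 10 spots on each array. It stood at 3.71, 3.57, 3.71 and 3.67 on the GFP-labelled arrays, and their Nr4a1-labelled partners gave 3.41, 3.31, 3.39 and 3.61. Nr4a1-labelled replicate 4 reached into the GFP-labelled range, and the other 3 Nr4a1-labelled arrays lay below it. Sst was lower in 4 of 4 pairs, with differences of -0.30, -0.25, -0.32 and -0.06 (95% interval of the mean -0.38 to -0.09). Over batch 1 alone the difference was -0.29 (limma adjusted p = 0.0174), and batch 2 is the single pair at -0.06. Spots of the same array spread by 0.034 to 0.086 (SD), and 2 of the 10 spots on Nr4a1-labelled replicate 3 were marked as outliers and left out. The call was lost without replicate 1, 2 or 3 in turn (adjusted p = 0.0922, 0.0872 and 0.0777, with differences of -0.21, -0.23 and -0.21).

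**Figure D1:**
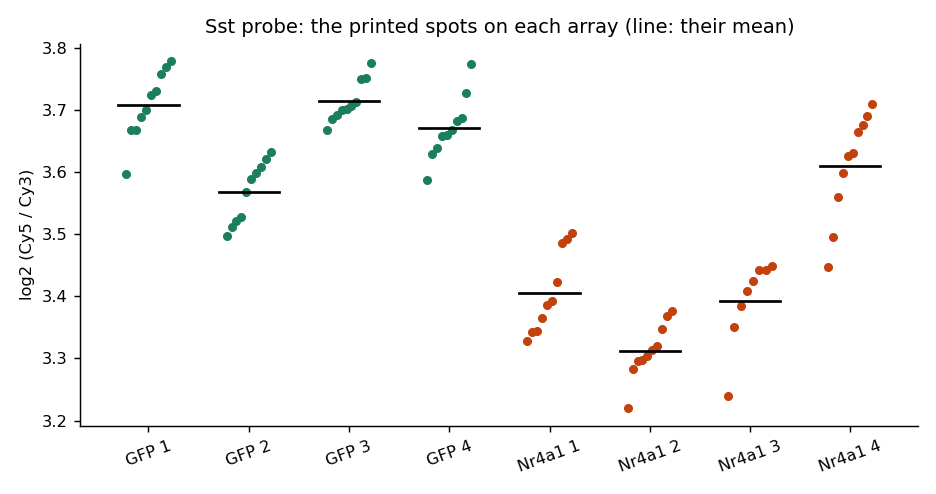
Log2 of Cy5 over Cy3 at each kept spot of the somatostatin probe (y axis) on the 8 arrays (x axis), with a line at each array's mean. Nr4a1-labelled replicates 1 to 3 lie at 3.31 to 3.41 and replicate 4 at 3.61, against 3.57 to 3.71 on the GFP-labelled arrays.

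The size of the Sst difference depended on the channel. In the Cy5 channel alone, quantile-normalised across arrays, Sst was 1.99-fold lower (-1.0 ± 0.10 on the log2 scale; limma adjusted p = 0.000164; 14.0% of all features were lower in that channel), with pair differences of -1.24, -1.15, -0.93 and -0.67. From the ratio that Agilent's software had computed it was -0.12 (adjusted p = 0.239). The unnormalised Cy5 signal at the probe was 7925, 13274, 10967 and 7387 on the GFP-labelled arrays, against 4172, 6012, 7378 and 4357 on their partners. The Cy3 signal of the common reference at the same spots was 508, 711, 657 and 501 on the former and 296, 388, 427 and 361 on the latter. The reference signal at Sst was thus lower on every Nr4a1-labelled array than on any GFP-labelled one. The ratio divides by this reference signal, and its part in the difference between the channels was not tested.

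**Figure D2:**
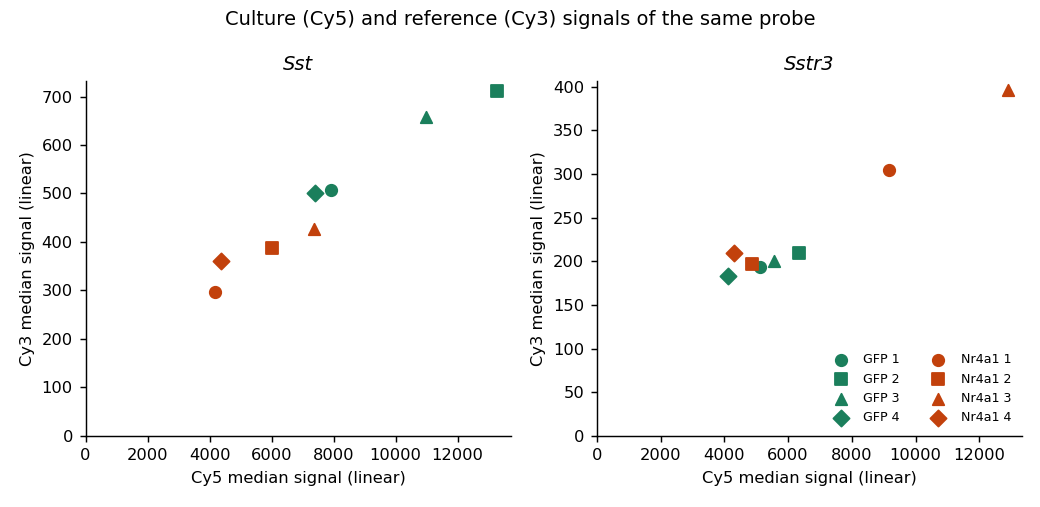
Median Cy3 signal of the reference (y axis, linear) against median Cy5 signal of the culture (x axis, linear) at the Sst and Sstr3 probes, 1 point per array, coloured by group with a marker per replicate. At both probes the arrays of highest Cy5 signal also had the highest Cy3 signal, from 296 to 711 for Sst and from 183 to 396 for Sstr3.

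Cortistatin (A_55_P2167323) was well above background on all 8 arrays in both dyes. GFP-labelled arrays gave 1.22, 0.86, 1.14 and 1.05 and Nr4a1-labelled arrays 0.72, 0.44, 0.33 and 0.91. The groups overlapped, since GFP-labelled replicate 2 lay below Nr4a1-labelled replicate 4. It was lower in 4 of 4 pairs, with differences of -0.50, -0.41, -0.80 and -0.13, a 1.38-fold lower level over all pairs (95% interval of the difference -0.67 to -0.25). As for Sst, the pair of batch 2 showed the smallest difference, and batch 1 alone gave -0.57 (limma adjusted p = 0.00303). Its reference signal ran from 600 to 778.5 on GFP-labelled and from 579 to 636 on Nr4a1-labelled arrays. In the Cy5 channel alone Cort was 1.52-fold lower (-0.61 ± 0.10; adjusted p = 0.00275). From Agilent's processed ratio the difference was -0.49, which missed the threshold (adjusted p = 0.0543).

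**Figure D3:**
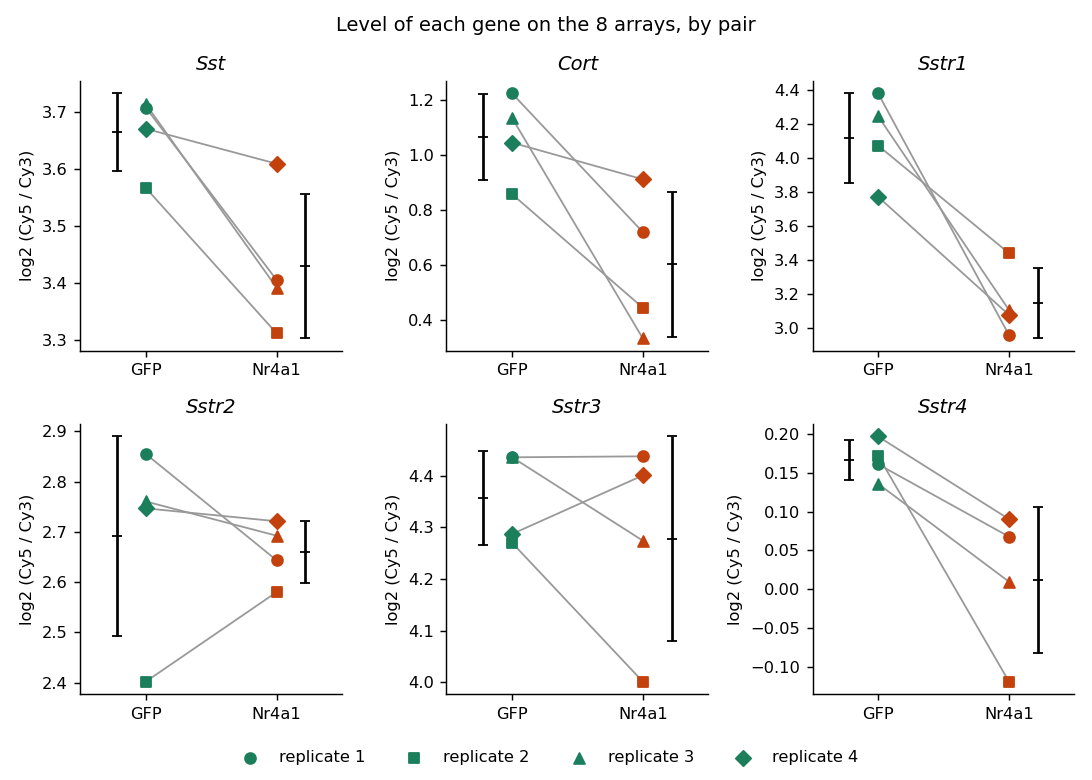
Log2 of Cy5 over Cy3 (y axis) for the 6 genes on GFP-labelled and Nr4a1-labelled arrays, with a marker per replicate, a line joining each pair and the mean ± SD (n = 4) beside each group. Every line falls for Sst, Cort, Sstr1 and Sstr4, and lines cross for Sstr2 and Sstr3. The y axes differ between panels.

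Among the receptors, Sstr1, which in brain is known as a receptor with an autoreceptor role on somatostatin neurons, differed most. Its brighter probe (A_66_P100777) read 4.38, 4.07, 4.25 and 3.77 on GFP-labelled arrays, and 2.96, 3.44, 3.11 and 3.08 on Nr4a1-labelled arrays. The groups did not overlap, as was so with the Nr4a1-labelled group lower for 11.7% of all features tested. The level went from 4.12 ± 0.26 to 3.15 ± 0.21 (SD, n = 4), a difference with a 95% interval of -1.23 to -0.71 under this background correction and with pair differences of -1.42, -0.63, -1.14 and -0.69. The reference RNA was not well above background at this probe on any of the 8 arrays, with Cy3 signals of 43 to 50.5, so the level and the difference depend on how background is handled. With no offset in the background correction the difference was -1.49 (limma adjusted p = 0.0443). The Cy5 channel alone, which does not use the reference, gave -0.90 ± 0.08 (adjusted p = 0.000147), with Cy5 signals of 853.5 to 1362.5 on GFP-labelled and 461 to 850.5 on Nr4a1-labelled arrays.

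The other Sstr1 probe (A_51_P432950) was dim. It stood well above background on 3 of the 4 GFP-labelled arrays but on 0 of the 4 others, which left it out of the test. Its levels were 0.36, 0.44, 0.43 and 0.27 on GFP-labelled arrays against 0.06, 0.40, 0.20 and 0.35, and these ranges overlap. Its Cy5 signals were 69 to 79 on the former and 54.5 to 77 on the latter. Put in place of the brighter probe it gave -0.12 ± 0.07 (limma adjusted p = 0.263), lower in 3 of 4 pairs, a value much smaller than that of the brighter probe.

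Sstr2 (A_55_P2065424), the receptor that most somatostatin analogue drugs are known to act on, read 2.86, 2.40, 2.76 and 2.75 on GFP-labelled arrays. The Nr4a1-labelled arrays, at 2.64, 2.58, 2.69 and 2.72, lay within that range. The Sstr2 locus overlaps that of Slc39a11 in RefSeq (GRCm38.p6), and where the probe lies was not analysed here. It differed by -0.03 ± 0.07 (limma adjusted p = 0.785), and the 95% interval of the difference ran from -0.19 to 0.13. In the Cy5 channel alone it was lower and passed the test (-0.27 ± 0.09; adjusted p = 0.0487), with 1 of 4 pairs in the other direction.

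Sstr3 (A_55_P2106335), the receptor known for its place in the primary cilium of neurons, read 4.44, 4.27, 4.44 and 4.29 on GFP-labelled arrays, and 4.44, 4.00, 4.27 and 4.40 on Nr4a1-labelled ones. The groups overlapped, and the difference of -0.08 ± 0.07 (limma adjusted p = 0.474; 95% interval -0.24 to 0.08) was split between 2 pairs higher and 2 lower. Its separate channels were less even. The Cy5 signal was 5116, 6337, 5545 and 4129 in the GFP-labelled group, against 9162, 4879, 12910 and 4303. Nr4a1-labelled replicates 1 and 3 were thus the brightest of the 8 in Cy5, and they were also the brightest in Cy3 (305 and 396, against 183 to 210 on the other 6 arrays). In the Cy5 channel alone the pair differences were 0.54, -0.38, 0.87 and 0.12, with a mean of 0.29 ± 0.17 (SE; adjusted p = 0.235), so its direction turned with the channel.

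Sstr4 (A_51_P129546), an inhibitory receptor of pyramidal neurons in the hippocampus, read 0.16, 0.17, 0.14 and 0.20 on GFP-labelled arrays, and 0.07, -0.12, 0.01 and 0.09 on Nr4a1-labelled ones. The groups did not overlap, as was so with the Nr4a1-labelled group lower for 11.7% of all features tested. The level was lower in 4 of 4 pairs, and the difference of -0.15 ± 0.06 did not pass the test (limma adjusted p = 0.0961; 95% interval -0.29 to -0.02). It kept this sign and stayed short of the threshold in all 19 alternatives tried (adjusted p = 0.0547 to 1.0). The receptor gene Sstr5, which is no member here, differed by -0.22 ± 0.08 (limma adjusted p = 0.0814) and was lower in 4 of 4 pairs. It was singled out after its value was seen.

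**Figure D4:**
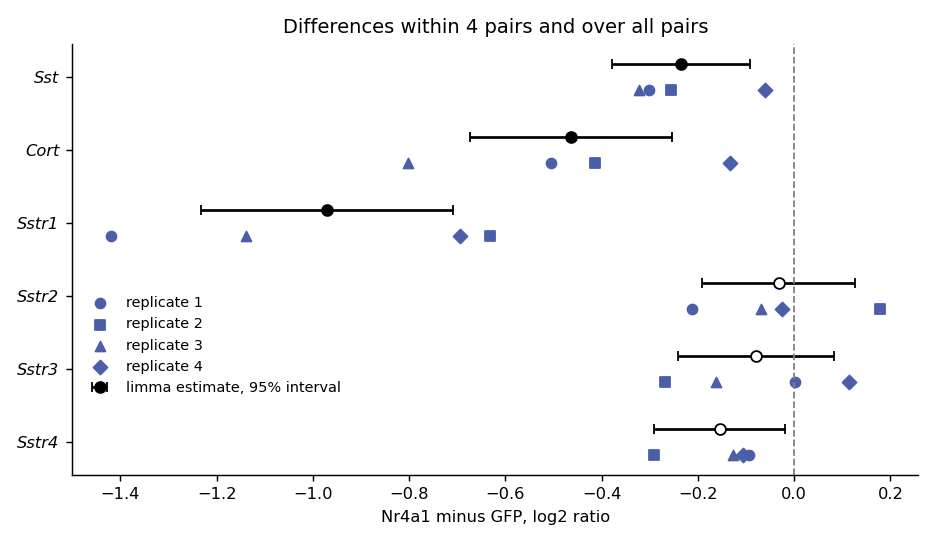
Nr4a1-labelled minus GFP-labelled log2 ratio (x axis) for the 6 genes, with the limma estimate and its 95% interval above (filled where adjusted p was under 0.05) and the 4 pair differences below, a marker per replicate. The intervals of Sst, Cort and Sstr1 lie below 0, as does that of Sstr4, which was not called after adjustment.

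The receptors were set against each other by their pair differences, in 6 comparisons. Sstr1 entered by its brighter probe alone, whose difference depends on how background is handled, as given above. The Sstr1 difference minus that of Sstr2 was -0.94 ± 0.24 (SD, n = 4 pairs), minus that of Sstr3 -0.89 ± 0.44 and minus that of Sstr4 -0.82 ± 0.44. Each of these was below 0 in 4 of 4 pairs, with a two-sided exact permutation p = 0.125 (adjusted p = 0.25), the smallest that 4 pairs can give. Sstr2, Sstr3 and Sstr4 differed from each other by -0.21 to 0.47 in single pairs, with exact permutation p = 0.375 to 0.875.

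Of 17 genes known from somatostatin interneurons, the neurons that make the peptide, 12 were tested. Among those not tested, Nkx2-1, Elfn1 and Pdyn were well above background on 0 of 8 arrays. Of the 12 tested, 2 were higher, 2 lower and 8 not called, with a median difference of -0.10. That is 33.3% called, near the 24.4% of all features. Calb1, the calcium buffer calbindin, which dentate granule cells also make, was lower by 1.25 ± 0.08 (difference -1.25). Satb1 and Sox6, transcription factor genes needed for the maturation of somatostatin interneurons, rose by 0.56 ± 0.08 and 0.29 ± 0.07. Which cells of the culture these changes came from was not tested. Lhx6, which specifies the lineage, differed by -0.13 (limma adjusted p = 0.149), and Npy, often made in the same cells, by 0.20 (adjusted p = 0.407). Of 24 genes of interneurons in general 21 were tested, 3 higher, 3 lower and 15 not called (28.6% called), with a median of -0.0016. Nr2f2, of interneurons from the caudal ganglionic eminence, rose by 0.87 and the homeobox gene Dlx1 by 0.41, while calretinin (Calb2) fell by 0.92 and the serotonin receptor gene Htr3a by 0.49 (-0.92 and -0.49). The GABA-synthesis genes Gad1 and Gad2 differed by 0.08 and 0.03 (adjusted p = 0.536 and 0.83), and the vesicular GABA transporter gene Slc32a1 by -0.19 (adjusted p = 0.0784). Lhx6, Npy, Gad1, Gad2 and Slc32a1 were singled out after their values were seen, and none of them was called. Among the genes of interneurons in general, Dlx2 (0.33) and Lamp5 (-0.26) were also called (limma adjusted p = 0.00378 and 0.0192). These, too, were added after their values were seen.

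The marker genes of cell types that the cultures could hold were read beside this. Of 12 pan-neuronal markers 12 were well above background on all 8 arrays, with 2 higher and 2 lower in the Nr4a1-labelled group. Over all features tested 12.9% were higher and 11.5% lower, 24.4% in either direction. A list's mean level is the mean log2 ratio over its tested genes on an array. Of 13 interneuron markers 12 were tested, 2 higher and 2 lower, at mean levels of 2.28 to 2.49 on GFP-labelled and 2.27 to 2.39 on Nr4a1-labelled arrays. All of these markers are also in the interneuron lists given above, so they are no separate reading. Those called are again Dlx1 and Dlx2 (higher) and Calb2 and Htr3a (lower). The oligodendrocyte lineage list (12 genes) had 6 higher and 2 lower (mean levels 0.77 to 0.91 and 1.1 to 1.14), and of 10 proliferation markers 6 were higher and 0 lower (-3.96 to -3.74 and -3.51 to -3.37). Of 11 astrocyte markers 3 were higher and 0 lower (3.28 to 3.42 and 3.38 to 3.50). Of 10 glutamatergic markers 9 were tested, 1 higher and 1 lower (3.76 to 3.91 and 3.71 to 3.91). Of 11 microglia markers 6 were tested, 0 higher and 1 lower (-1.51 to -1.47 and -1.71 to -1.59), with P2ry12 and C1qc well above background on 0 of 8 arrays. Of 12 fibroblast and vascular markers 11 were tested, 0 higher and 2 lower (-2.26 to -2.21 and -2.40 to -2.35). Of the tested genes, 66.7% were called in the oligodendrocyte lineage list and 60% among the proliferation markers. The other marker lists had 16.7% to 33.3% called. The part of the cell make-up in the differences of Sst, Cort and Sstr1 was not tested.

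Both peptides are cut from larger precursors, and 16 of 16 genes of precursor processing and granule cargo were tested, with 2 higher, 5 lower and 9 not called (median -0.12; 43.8% called against 24.4% of all features). Pcsk1, a prohormone convertase, rose by 0.96 ± 0.08 and Cpe, the carboxypeptidase that trims the cut peptides, by 0.51 ± 0.06. The convertase gene Pcsk6 fell by 0.49 and the amidating enzyme gene Pam by 0.37 (differences -0.49 and -0.37). Pcsk2, the other neuronal convertase gene, differed by -0.03 (limma adjusted p = 0.760) and was singled out after its value was seen.

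Of 35 genes of receptor signalling 31 were tested, with 2 higher, 7 lower and 22 not called, a median of -0.09. The share called, 29.0%, is near the 24.4% of all features. The adenylyl cyclase gene Adcy6 rose by 0.73 ± 0.06 and Adcy9, another, fell by 0.44 ± 0.06 (-0.44). The arrestin gene Arrb1, which ends receptor signalling, fell by 0.38 (-0.38) and the G protein subunit gene Gnb2 by 0.31 (-0.31). The potassium channel genes Kcnj3 and Kcnj6 differed by 0.03 and -0.04 (limma adjusted p = 0.799 and 0.702) and the G protein gene Gnao1 by 0.000062 (adjusted p = 1.0), and these were singled out after their values were seen.

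Of 26 genes of the primary cilium, where Sstr3 resides, 26 were tested, with 3 higher, 9 lower and 14 not called (median -0.07; 46.2% called against 24.4% of all features). Mchr1, another receptor of the neuronal cilium, fell by 0.59 ± 0.07 (-0.59) and the transport gene Ift20 by 0.34 (-0.34). Bbs9, of the complex that moves receptors in cilia, rose by 0.93 ± 0.07 and Ift80 by 0.65 ± 0.07. Sstr3 itself was not called, as given above.

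**Figure D5:**
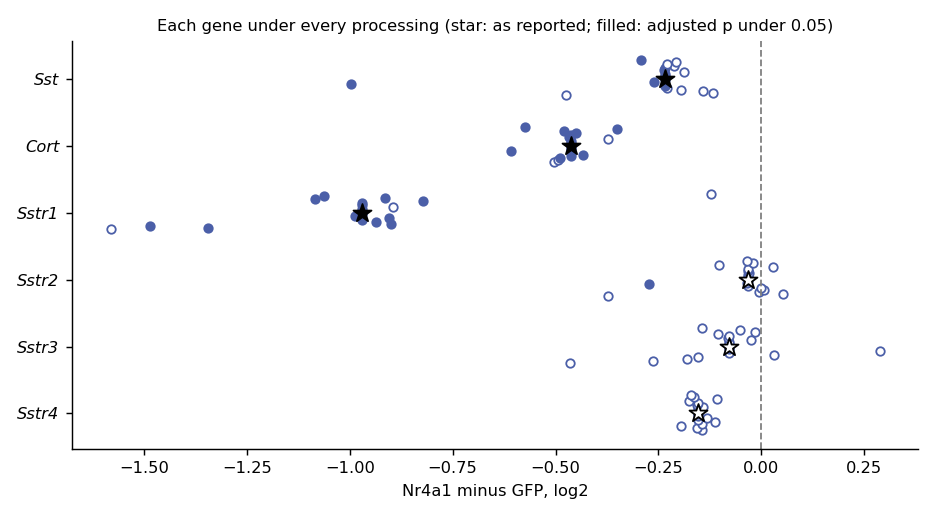
Nr4a1-labelled minus GFP-labelled difference of each gene on the log2 scale (x axis) under every processing tried, 1 point each. The star is the reported value, and filled symbols passed at an adjusted p under 0.05. Sst runs from -1.0 to -0.12, Cort from -0.61 to -0.35 and Sstr1 from -1.58 to -0.12, where the last is its dimmer probe.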

How the data were processed

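The members and gene lists were chosen with earlier results of these data known. Per the file headers, spots were quantified by Feature Extraction 11.0.1.1. The scanner files hold median signal and background intensities, processed signal intensities, and a log10 ratio of Cy5 over Cy3, as deposited by the authors. The authors' deposited value table holds log2 values of unstated scale and direction. Its columns correlated with the ratios computed below over 24275 probes (r of 0.998 to 1.0, slopes 0.992 to 1.01, medians of 0.024 to 0.0312), so it was read as log2 of Cy5 over Cy3. Limma and Agilent's software are also named in the submitters' processing notes, with no version. Spots with a non-uniform local background were left out, a choice known from earlier results to matter, and 0 member spots were among them. Median signals were corrected by normexp with an offset of 50, which shrinks folds of dim probes, and normalised by loess within arrays. Outlier spots were left out and spots of a probe averaged. Probes were named through RefSeq (GRCm38.p6): 26581 of 39429 matched. A probe was tested with Cy5 well above background on at least 4 of 8 arrays and 3 values per group, and the brightest probe in Cy5 stood for its gene. Differences were tested two-sided in limma 3.58.1 (R 4.3.3) with a fixed term for the labels' pair. P-values were adjusted by Benjamini-Hochberg over all 21116 features, and 0.05 was the threshold. The labels give the pairing, and deviations from group means correlated within pairs at -0.10, 0.28, -0.016 and 0.43. The fit was tested on simulated data with known changes. It recovered 96% of changes of 1 and 63% of changes of 0.5 on the log2 scale, with 3 false calls. Smaller changes and slide effects were not simulated. Genes named beside the members are up to 4 of smallest p among those called in each list, unless said otherwise, and 1 such gene is not reported here. There were 19 alternatives, concerning background, normalisation, channel, filter, block, probe and replicates, and 1 more was chosen after the data were seen.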

Additional observations from a re-analysis of the deposited data

Results flagged for a closer look

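One value stood apart from the other pairs among the 21 groups of 4 values examined for the 7 probes. The Sstr4 difference in replicate 2 was -0.29, against -0.09, -0.13 and -0.11 in replicates 1, 3 and 4. Its gap was 0.833 of the whole range, past the 95% critical value of Dixon's test. Chance flags about 1 in 20 such groups. Without replicate 2 Sstr4 differed by -0.11 (limma adjusted p = 0.396).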

How the results depend on the processing

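Over 19 alternatives Sst, Cort and Sstr1 were lower in every one, and their calls held in 10, 16 and 17 of them. In 6 of the 19 (Aquantile scaling, both detection filters, the mean over tested probes, no pair block and a batch block) the difference is the same by construction, and in the other 13 the calls held in 4, 10 and 11. Without the replicate block that stands for the pairing, 3 of 6 genes were called (Sst -0.23, adjusted p = 0.0364), and no call among the 6 changed. With all spots kept in the background correction 0 genes were called: Sst -0.47, Cort -0.50 and Sstr1 -1.58 (adjusted p = 0.295, 0.141 and 0.148). A random slide block on top of the pair left 0 called: Sst -0.19, Cort -0.37 and Sstr1 -0.90. In Agilent's own ratio 1 was called, Sst being -0.12, Cort -0.49 and Sstr2 0.053, the last reversed. The Sst call was also lost with an offset of 0 (-0.14), without background correction (-0.20, where Sstr2 reversed to 0.0071) and with median centring (-0.23, where Sstr3 reversed to 0.031). In the Cy5 channel alone Sstr2 passed (-0.27) and Sstr3 reversed (0.29). The dimmer Sstr1 probe, an alternative added after the data were seen, gave -0.12. Leaving out each replicate in turn gave -0.29 to -0.21 for Sst, -0.57 to -0.35 for Cort, -1.08 to -0.82 for Sstr1, -0.10 to 0.028 for Sstr2, -0.14 to -0.015 for Sstr3, -0.17 to -0.11 for Sstr4 and 2 to 3 genes called. Sstr2 reversed without replicate 1. Over all features, 2714 rises and 2433 falls became 128 and 97 with all spots, 8 and 4 with the slide block, 1511 and 1350 in Agilent's own ratio, 1698 and 1570 with an offset of 0, 3464 and 1262 with median centring, and 1762 and 1628 without replicate 1. The cause of these changes was not tested. Signal over background limits both Sstr1 probes.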

Other observations

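Genes of cyclic AMP signalling and of the factors that act on cyclic AMP response elements were tested in 25 of 26 cases, with 7 higher, 4 lower and 14 not called (median 0.01; 44.0% called against 24.4% of all features). Prkacb, a catalytic subunit of protein kinase A, rose by 0.51 ± 0.07 (limma SE, n = 4 pairs). Atf1 and Atf2, transcription factor genes of the CREB family and its relatives, rose by 0.44 ± 0.07 and 0.34 ± 0.06, and the homeobox gene Meis2 fell by 0.41 ± 0.06 (-0.41). Creb1, singled out after its value was seen, rose by 0.31 ± 0.08 (limma adjusted p = 0.0165).

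Of 19 related peptide and receptor genes 12 were tested, with 1 higher, 2 lower and 9 not called (25.0% called). Npy2r, a receptor of neuropeptide Y, rose by 1.01 ± 0.08, while Npy1r fell by 0.89 ± 0.08 (-0.89). Ghsr, the ghrelin receptor gene, whose product also binds cortistatin, was well above background on 0 of 8 arrays.

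By Pearson correlation of levels over the 8 arrays, among 14980 named genes, those most like Sst were Otub2 (0.99), Rbks (0.98) and Crym (0.97), those most like Cort were Tceal5 (0.99), Tert (0.98) and D6Wsu163e (0.98), and those most like Sstr1 were Capn10 (0.99), Hdlbp (0.99) and Carmil3 (0.99). For Sstr2 they were Mmd2 (0.95), Ankle1 (0.91) and Sprr1a (0.90), for Sstr3 Cnnm1 (0.97), Ifna7 (0.97) and Arxes1 (0.95), and for Sstr4 Fam131b (0.99), Fbxo9 (0.99) and Brwd1 (0.98). These levels share arrays, reference and normalisation, and the likeness is a description. Chosen after their values were seen, Crym fell by 0.39 and Hdlbp by 0.46 (differences -0.39 and -0.46; limma adjusted p = 0.00764 and 0.000886). They were picked for likeness, over both groups, to members that were lower, so their own fall is no separate result.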
